A study of Homo sapiens with 2 samples.

Results

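m6A readers and erasers were followed in ACHN cells, an established human renal cell carcinoma line, with and without an shRNA against KIAA1429 (VIRMA), the scaffold of the m6A methyltransferase complex. The set was chosen by gene name and held 10 genes: the readers YTHDF1, YTHDF2, YTHDF3, YTHDC1, YTHDC2, IGF2BP1, IGF2BP2 and IGF2BP3, and the demethylases ALKBH5 and FTO. All 10 were among the 12014 genes listed in the deposited tables. The control cells were infected with lentivirus that carried a control shRNA (shNC) and the other cells with lentivirus against KIAA1429 (shKIAA1429). Both were kept as stable, puromycin-selected populations, and there was 1 library per group. The study made 2 shRNAs against KIAA1429 and does not say which of them was sequenced. The sample labels call the treated cells a KIAA1429 knockout, whereas the methods of the study describe an shRNA knockdown. With 1 library per group the spread between cultures is unknown, so every value below compares 2 libraries and no p-value was computed.

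N6-methyladenosine (m6A) is laid on mRNA by a methyltransferase complex, the writer, and can be removed by demethylases, the erasers. Readers bind the methylated RNA and pass it on to decay, translation, splicing, export or storage. The proteins of the YTH family hold the methyl group in a pocket of their YTH domain, whereas the IGF2BP proteins bind RNA through KH domains and are known for stabilizing their target mRNAs. KIAA1429 belongs to the writer, so the members described here are the proteins that act on the mark after it has been laid. The m6A mark itself was not measured in these libraries.

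The levels are in FPKM, a fragment count divided by gene length and by library size, so they can be compared between genes within a library. Between the libraries they depend on the scaling, since the FPKM sums were 283046 with shNC and 249409 with shKIAA1429, and other scalings are therefore given where they matter. Of these sums, 13 mitochondrial genes made up 42.2% with shNC and 34.6% with shKIAA1429. Changes are given as log2 ratios of the shKIAA1429 to the shNC library after adding 1 to each FPKM, so that the changes of low genes come out too small. The targeted gene KIAA1429, listed as VIRMA (ENSG00000164944.11_3), was at 3.92 FPKM in the control library and at 3.22 FPKM in the other. This was 82.1% of control, a log2 change of -0.22. Over all genes that averaged 1 FPKM or more, the median size of the log2 change was also 0.22, so KIAA1429 did not stand out by size. The share of control under other scalings is not given for KIAA1429. By RT-qPCR and western blot, the study reported significantly reduced KIAA1429 mRNA and protein in its knockdown ACHN cells. Of 11 renal epithelial markers 9 were listed, among them PAX8 and PAX2 at 31.4 FPKM or more in both libraries, whereas LRP2 and CA9 were not listed. Of these 9 markers 4 were higher and 5 lower with shKIAA1429, from VIM at a log2 change of -0.69 to PAX8 at 0.68, and CDH16, the kidney cadherin, was at 6.61 and 4.29 FPKM. Of 6 markers of other cell types, ACTA2 was at 47.1 and 76.2 FPKM and COL1A1 at 1.08 and 1.62 FPKM with shNC and shKIAA1429, and PTPRC, PECAM1, VWF and ALB were not listed. In bulk libraries such as these, fewer cells that express a gene and less RNA per cell cannot be told apart. The number of reads in each library is unknown, since FPKM does not keep it.

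Since several members are close relatives, their coding sequences were compared first to see whether reads could be mistaken between them. The longest stretch of identical bases shared by YTHDF1 and YTHDF2 is printed here because they are the closest pair of the YTHDF family by this measure. The capitals mark the 20 shared bases, and the lower case letters are 15 bases on either side. Both stretches lie in the coding sequence in exon 4 and encode part of the YTH domain. They are read from GENCODE 29 transcripts (GRCh38). The YTHDF1 stretch is at chr20:63202723-63202772 on the minus strand, and the YTHDF2 stretch is at chr1:28743501-28743550 on the plus strand.
YTHDF1: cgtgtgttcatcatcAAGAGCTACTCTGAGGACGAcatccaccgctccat
YTHDF2: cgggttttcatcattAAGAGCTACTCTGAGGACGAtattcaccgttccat

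The longest stretches that IGF2BP1 shares with its relatives lie near the start of the coding sequence, in exon 1, in the first RNA recognition motif. IGF2BP1 and IGF2BP2 share 22 bases there, in capitals. The IGF2BP1 stretch is at chr17:48997839-48997890 on the plus strand, and the IGF2BP2 stretch is at chr3:185824813-185824864 on the minus strand.
IGF2BP1: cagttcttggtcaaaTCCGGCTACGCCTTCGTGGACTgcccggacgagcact
IGF2BP2: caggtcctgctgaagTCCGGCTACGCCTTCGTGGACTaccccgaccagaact

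IGF2BP3 shares 21 bases with IGF2BP1 in the same exon, 12 bases further along in IGF2BP1. The stretches are at chr17:48997851-48997901 on the plus strand for IGF2BP1 and at chr7:23469955-23470005 on the minus strand for IGF2BP3.
IGF2BP1: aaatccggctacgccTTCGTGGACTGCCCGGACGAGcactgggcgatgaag
IGF2BP3: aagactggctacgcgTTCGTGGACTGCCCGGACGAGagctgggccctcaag

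The reads were 150 bases long from both ends of a fragment, which is far longer than any of these stretches. IGF2BP2 and IGF2BP3 shared at most 14 bases, in exon 6 of IGF2BP2 and exon 11 of IGF2BP3. YTHDF3 shared at most 17 bases with either of its relatives, YTHDC1 and YTHDC2 shared 12, and ALKBH5 and FTO shared 10. When all stretches of 100 bases of each member's coding transcript were looked up in the 206694 transcripts of GENCODE 29, none was found in another member. YTHDF2 shared 3.26% of its stretches with the processed pseudogene YTHDF2P1, IGF2BP2 0.992% and IGF2BP3 0.795% with other processed pseudogenes, and the other 7 members shared 0 with any other gene. The members overlapped 0 other listed genes on their own strand. On the opposite strand, IGF2BP3 overlaps MALSU1 and FTO overlaps RPGRIP1L at the ends of the genes. The libraries keep the strand, but whether the counting used it is not given in the sources used here.

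The members spanned a wide range of levels. In the shNC library the order from the highest was IGF2BP2, ALKBH5, YTHDF1, YTHDC1, IGF2BP3, YTHDF3, YTHDF2, YTHDC2, FTO and IGF2BP1, from 33.5 FPKM down to 0.582 FPKM. In the shKIAA1429 library the order was the same except that YTHDF2 and YTHDF3 exchanged places. IGF2BP2 was higher than 93.0% of the listed genes in the shNC library and IGF2BP1 higher than 4.78% of them. With 1 library per group, it cannot be said which neighbours in this order differ beyond the spread between cultures.

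**Figure D1:**
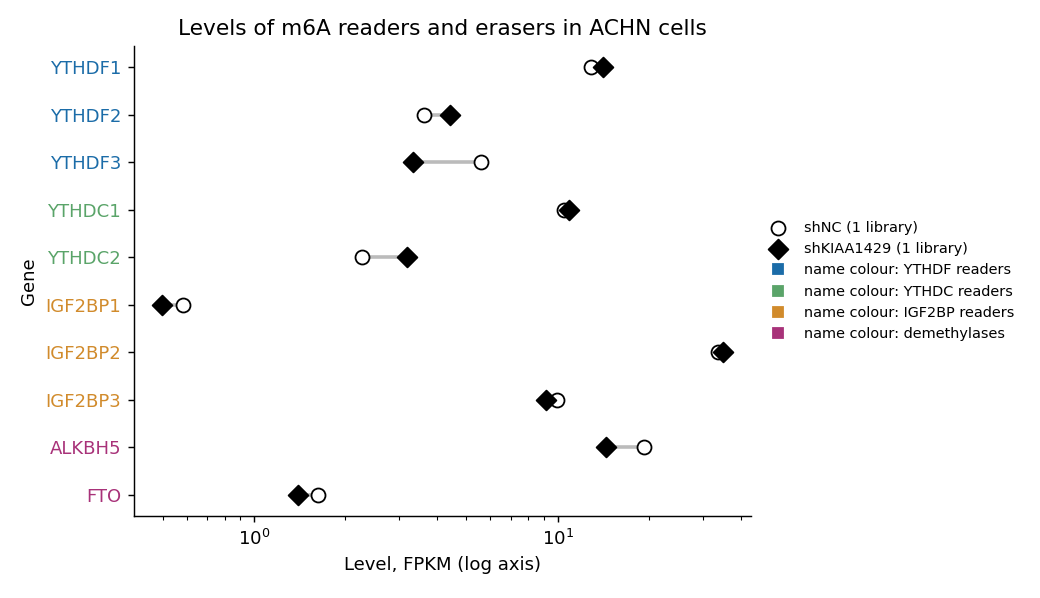
Level of each reader and eraser in FPKM on a log axis, with an open circle for the shNC library, a filled diamond for the shKIAA1429 library and a grey line between them. The longest line is that of YTHDF3, from 5.57 to 3.34 FPKM, and the markers of YTHDC1 and IGF2BP2 nearly coincide.

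YTHDF1, YTHDF2 and YTHDF3 are the cytoplasmic YTH readers, of which YTHDF2 is best known for recruiting the CCR4-NOT deadenylase to methylated mRNA. YTHDF3 (ENSG00000185728.16_3, chromosome 8 of GRCh37, 64081112 to 64125344, plus strand) was at 5.57 FPKM with shNC and at 3.34 FPKM with shKIAA1429. The level was 60.1% of control, with a log2 change of -0.60, the largest of the 10 members in either direction. YTHDF2 (ENSG00000198492.15_3, chromosome 1, 29063133 to 29096287, plus strand) was at 3.64 FPKM with shNC and at 4.40 FPKM with shKIAA1429, a log2 change of 0.22. YTHDF1 (ENSG00000149658.17_2, chromosome 20, 61826781 to 61847586, minus strand) was at 12.8 and 14.1 FPKM, a log2 change of 0.13. YTHDF3 was thus lower in the shKIAA1429 library while both of its relatives were slightly higher.

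Since a ratio of genes within a library does not depend on how the libraries were scaled to each other, each member was also expressed as a share of its family. YTHDF1 made up 58.2% of the YTHDF sum with shNC and 64.6% with shKIAA1429, YTHDF2 16.5% and 20.1%, and YTHDF3 25.3% and 15.3%. The ratio of YTHDF2 to YTHDF3 was 0.653 with shNC and 1.32 with shKIAA1429. The 3 genes together were at 22.0 FPKM with shNC and 21.8 FPKM with shKIAA1429, or 99.2% of control. This became 113% when both libraries were brought to the same total of 1000000, called rescaling here, 99.5% when this was done without the mitochondrial genes, and 95.3% when the median change over all genes was taken out, called centring. The share of YTHDF3 was lower with shKIAA1429, and the family sum lay between 95.3% and 113% of control.

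**Figure D2:**
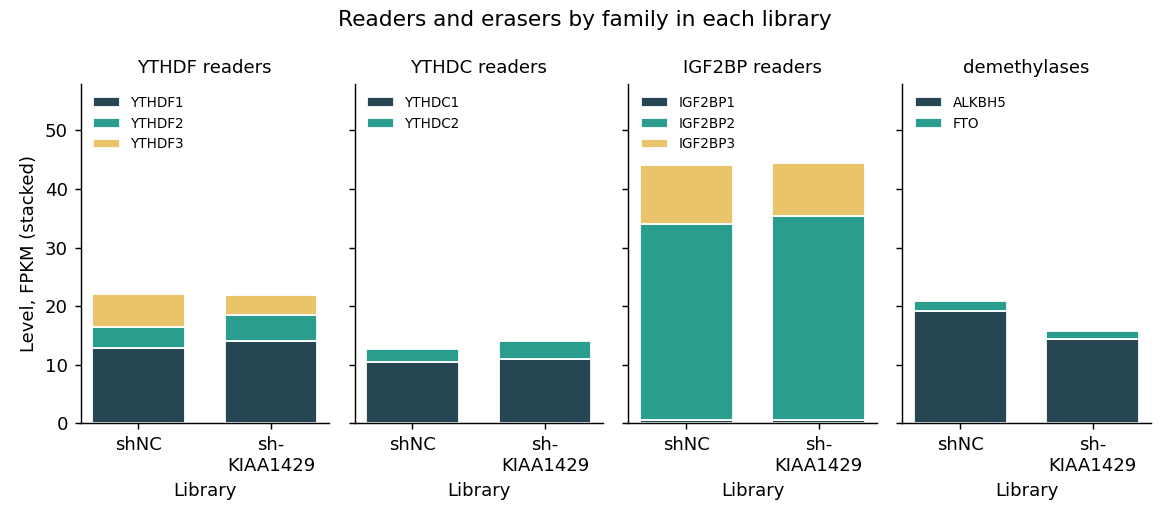
Stacked levels in FPKM of the members of each family in the shNC and the shKIAA1429 library, 1 library per bar. The YTHDF and IGF2BP bars are of nearly equal height in both libraries, the YTHDF3 part is smaller with shKIAA1429, and the demethylase bar is lower, at 15.8 against 20.9 FPKM.

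YTHDC1 is the nuclear YTH reader, with known roles in splicing and export, and YTHDC2 is a large RNA helicase with a YTH domain, known for its role in germ cells. YTHDC1 (ENSG00000083896.12_3, chromosome 4, 69176105 to 69215807, minus strand) was at 10.4 FPKM with shNC and 10.9 FPKM with shKIAA1429. Its log2 change of 0.05 became -0.0032 after centring. YTHDC2 (ENSG00000047188.15_2, chromosome 5, 112849380 to 112930982, plus strand) was at 2.27 FPKM with shNC and 3.19 FPKM with shKIAA1429, or 140% of control. Its log2 change of 0.35 was the highest among the members. It stayed positive under every setting tried, from 0.13 with the trend of GC content and transcript length removed to 0.61 after rescaling. YTHDC2 made up 17.9% of the sum of both genes with shNC and 22.6% with shKIAA1429.

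IGF2BP1, IGF2BP2 and IGF2BP3 are related RNA-binding proteins, of which IGF2BP1 and IGF2BP3 are known as oncofetal genes that are largely silent in adult tissue. IGF2BP2 (ENSG00000073792.15_2, chromosome 3, 185361527 to 185542844, minus strand) was at 33.5 FPKM with shNC and 34.9 FPKM with shKIAA1429, a log2 change of 0.06. IGF2BP3 (ENSG00000136231.13_2, chromosome 7, 23349828 to 23510086, minus strand) was at 9.95 and 9.13 FPKM, a log2 change of -0.11 that became 0.06 after rescaling. IGF2BP1 (ENSG00000159217.9_3, chromosome 17, 47074774 to 47133012, plus strand) was at 0.582 and 0.497 FPKM, below the mean of 1 FPKM required for the counts that follow. IGF2BP2 carried 76.1% of the family sum with shNC and 78.4% with shKIAA1429, and IGF2BP1 carried 1.32% and 1.12%. The family was therefore represented mainly by IGF2BP2 in both libraries, with IGF2BP3 next.

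ALKBH5 and FTO are the m6A demethylases, both iron- and oxoglutarate-dependent dioxygenases of the AlkB family. ALKBH5 (ENSG00000091542.8_2, chromosome 17, 18086392 to 18113268, plus strand) was at 19.2 FPKM with shNC and at 14.4 FPKM with shKIAA1429. The level was 74.8% of control, with a log2 change of -0.39, which ranged from -0.45 after centring to -0.23 after rescaling. FTO (ENSG00000140718.20_3, chromosome 16, 53735604 to 54192424, plus strand) was at 1.62 and 1.39 FPKM, a log2 change of -0.13 that came to -0.03 after rescaling. Without the mitochondrial genes, rescaling gave -0.41 for ALKBH5 and -0.19 for FTO. Both demethylases were lower with shKIAA1429 under all 6 alternative settings, though another pseudocount cannot change a sign. None of these settings scaled the libraries to a reference gene. The reference genes GAPDH and ACTB were at 80.7% and 84.1% of control, beside 74.8% for ALKBH5 and 86.0% for FTO. FTO was thus lowered less than either reference gene. Together ALKBH5 and FTO were at 20.9 FPKM with shNC and 15.8 FPKM with shKIAA1429, or 75.7% of control. This became 85.9% after rescaling and 75.9% after rescaling without the mitochondrial genes. ALKBH5 was 11.9 times as high as FTO with shNC and 10.3 times with shKIAA1429. The 8 readers together were at 78.8 FPKM with shNC and 80.4 FPKM with shKIAA1429, or 102% of control. The share was 116% after rescaling, 102% after rescaling without the mitochondrial genes and 98.1% after centring.

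The changes were then placed beside those of all genes. Of the 10708 genes whose FPKM averaged 1 or more over both libraries, 0.644% were past 1.5 on the log2 scale, the limit in the methods of the study, with 42 higher and 27 lower. The study joined that limit to a p-value limit on DESeq2 changes, whereas here it was applied to FPKM ratios alone. Rescaling, which also weakens the added 1, gave 135 higher and 32 lower, rescaling without the mitochondrial genes 109 and 57, and adding 0.1 in place of 1 gave 114 and 60. Of the 9 members that met this mean, 0 were past 1.5 in either direction. At a limit of 0.5, 1 member was lower (YTHDF3), beside 6.12% of all genes, and 0 members were higher, beside 9.92% of all genes. The median log2 change of the 9 members was 0.05, with 5 higher and 4 lower, and that of all 10708 genes was 0.06, with 57.3% higher. The members as a set thus lay where genes in general lay, and rescaling moved both medians up, that of all genes by 0.18. Without the mitochondrial genes, rescaling moved the median of all genes by 0.015.

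**Figure D3:**
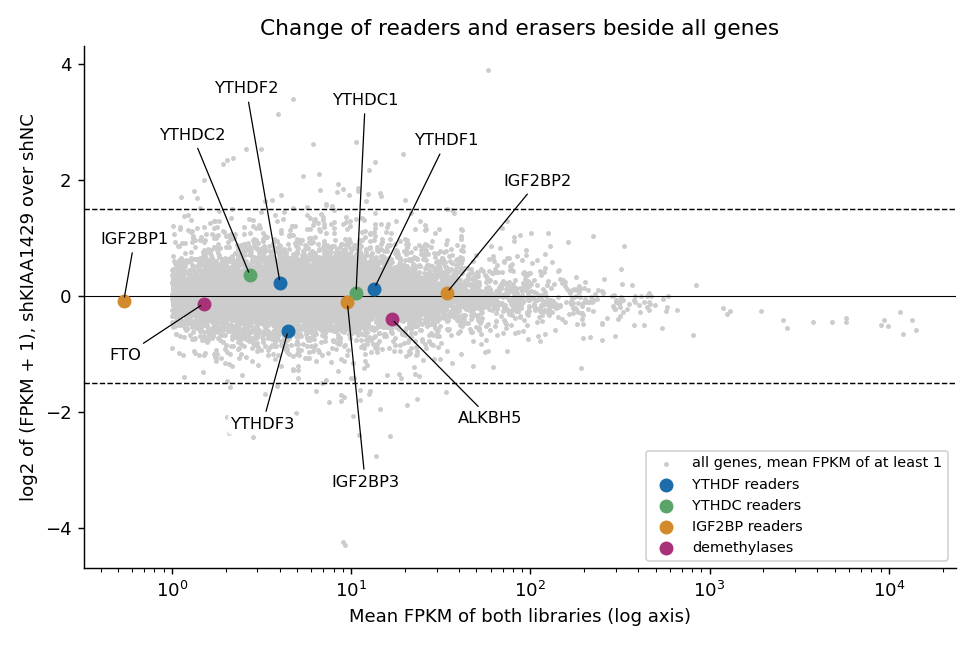
Log2 change with shKIAA1429 over shNC, 1 added to each FPKM, against the mean FPKM of both libraries on a log axis, with all genes in grey, the members in the colours of their families and dashed lines at 1.5 in either direction. The members lie between -0.60 (YTHDF3) and 0.35 (YTHDC2), within the spread of the grey points, except that IGF2BP1 lies left of them because its mean is below 1 FPKM.

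For a closer view each member was set beside the 534 other genes of its own level, in 1 of 20 bins of mean FPKM. In the bin of YTHDF3, which covers 3.94 to 4.51 FPKM, 27 genes had a lower log2 change and 507 a higher one. The central 90% of these genes lay between -0.59 and 0.60, so YTHDF3 was just outside this range. In the bin of ALKBH5, 44 genes were lower and 490 higher, and in that of YTHDC2, 456 were lower and 78 higher, both within the central 90% of their bins. For the other 6 members, between 49.6% of the genes of like level (YTHDF2) and 86.9% (YTHDC1) had a change of larger size. These shares describe how far 2 libraries differed over genes and are no test of the knockdown.

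Position on the chromosome was looked at as well, over the listed genes that met this mean within 5 Mb of each member. YTHDF3 had the lowest log2 change of its neighbourhood, with 0 of its 18 neighbours lower and a median of 0.09 among them. Of the 50 neighbours of ALKBH5, 7 had a lower log2 change, and their median was -0.03. Of the 22 neighbours of YTHDC2, 18 had a lower log2 change than it, and their median was 0.23. Of the neighbours, 11 of 18 were higher for YTHDF3, 22 of 50 for ALKBH5 and 15 of 22 for YTHDC2, beside 57.3% of all genes. Whether position bears on these changes was not tested.

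The transcripts of the members differed in length and in their content of GGACT, the best known form of the m6A consensus, searched on the transcript strand only. In the coding transcripts with the longest coding sequence, IGF2BP1 held 9 GGACT in 8274 bases and YTHDC1 held 0 in 2983 bases. YTHDF3 held 2 and ALKBH5 held 4, or 0.844 and 1.46 per kilobase, beside a median of 0.935 over the 11887 listed genes with such a transcript. Of these genes, 90.4% held at least 1. A match shows only that the letters are present, and which of these sites carry m6A was not measured here. Of the bases searched, 1731 in IGF2BP1 and 2205 in YTHDC1 were coding. Other transcripts of a gene, which can have other noncoding ends, were not counted, so each count holds for the chosen transcript only.

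Genes that act with the readers and erasers were followed in lists written from known functions. The list of m6A methyltransferases, which also held scaffold and partner proteins of the complex, had 12 listed genes with KIAA1429 among them. Their median log2 change was 0.17, with 8 higher and 4 lower, beside 57.3% higher and a median of 0.06 over all genes. After centring 7 were higher and 5 lower. The largest changes were those of METTL16, which methylates U6 snRNA (3.69 and 2.55 FPKM with shNC and shKIAA1429, a log2 change of -0.40), of RBM15B, a partner that binds RNA (11.8 and 15.8 FPKM, 0.39), and of ZCCHC4, which methylates ribosomal RNA (1.92 and 2.73 FPKM, 0.35). METTL3, the catalytic subunit, was at 2.73 and 3.36 FPKM, and its partner METTL14 at 1.83 and 2.10 FPKM. None of these 12 was past 0.5 in either direction, beside 16.0% of all genes.

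Other proteins reported to bind m6A or to bind RNA opened by it spread more widely. Of 11 such genes 8 were higher, with a median of 0.24, beside 57.3% higher and a median of 0.06 over all genes. After centring 6 were higher. RBMX was at 31.4 FPKM with shNC and 18.3 FPKM with shKIAA1429, a log2 change of -0.75, and HNRNPC was at 75.7 and 52.2 FPKM, a log2 change of -0.53. Both are nuclear RNA-binding proteins with near-identical gene copies, between which reads may have been divided. G3BP2, a stress granule protein, was at 15.1 and 26.0 FPKM, a log2 change of 0.75. FXR1, chosen after its values were seen, was the other gene of this list above 0.5, at 10.5 and 15.3 FPKM. Over all genes, 9.92% were higher and 6.12% lower by more than 0.5.

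The other AlkB dioxygenases did not follow ALKBH5 and FTO as a group. Of the 7 genes 5 were higher and 2 lower, with a median of 0.03, beside 57.3% higher over all genes. After centring 3 were higher. ALKBH7, a mitochondrial member, was at 23.6 FPKM with shNC and 14.9 FPKM with shKIAA1429, a log2 change of -0.63. ALKBH2, a DNA repair enzyme, was at 3.19 and 5.57 FPKM, a log2 change of 0.65, and ALKBH1 was at 3.16 and 4.77 FPKM, a log2 change of 0.47. The largest changes of the family thus went in both directions.

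**Figure D4:**
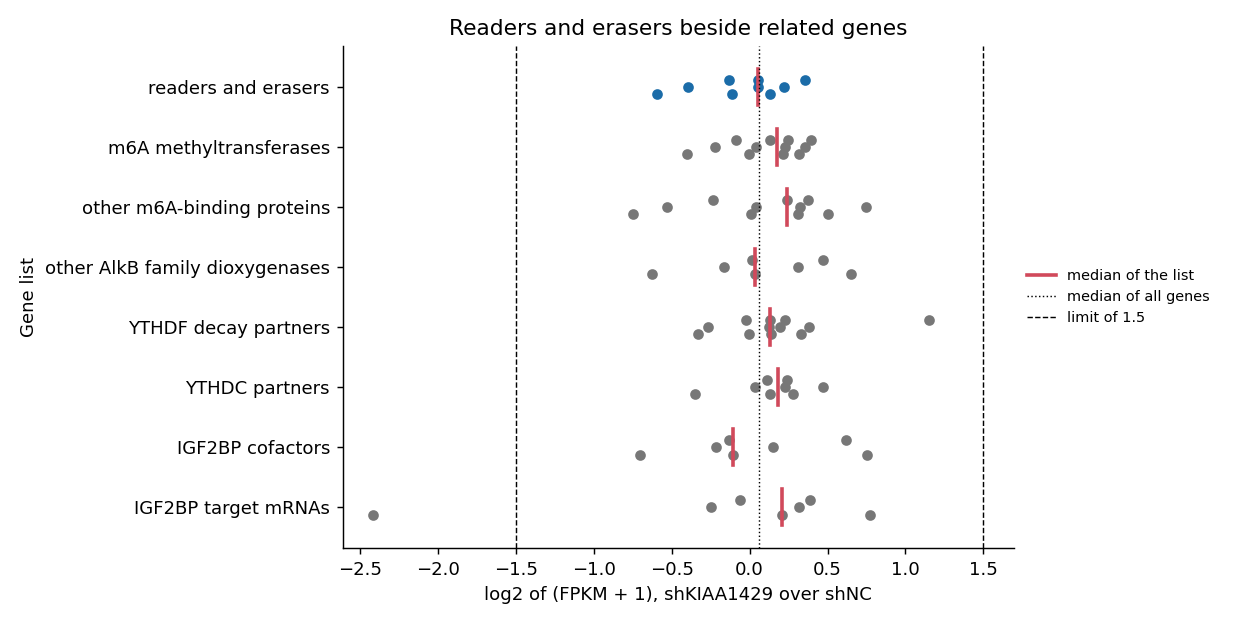
Log2 change with shKIAA1429 over shNC, 1 added to each FPKM, for each gene whose FPKM averaged 1 or more, in rows by gene list, with red bars at the median of each list, a dotted line at the median of all genes and dashed lines at 1.5 in either direction. The medians lie between -0.11 and 0.24, and the single gene beyond a dashed line is MYC, at -2.42.

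Among the partners of YTHDF2 in mRNA decay, the CCR4-NOT subunits with UPF1, RIDA and POP1, 12 genes met the mean of 1 FPKM. Of these 12, 8 were higher, beside 57.3% of all genes, with a median of 0.13 and the same count after centring. CNOT8, a deadenylase subunit, stood apart at 3.29 FPKM with shNC and 8.52 FPKM with shKIAA1429, a log2 change of 1.15, beside its close relative CNOT7 at 7.64 and 6.18 FPKM. CNOT7 was chosen after its values were seen. CNOT9 was at 3.63 and 5.01 FPKM and CNOT11 at 33.0 and 26.0 FPKM. Of the 8 listed partners of YTHDC1 and YTHDC2 7 were higher, with a median of 0.18, beside 57.3% of all genes, and after centring 6 were higher and 2 lower. The largest changes among them were those of the exonuclease XRN1 (1.37 and 2.29 FPKM, 0.47), of KHDRBS1 (32.0 and 24.9 FPKM, -0.35) and of the splicing factor SRSF10 (4.84 and 6.09 FPKM, 0.28).

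Of 7 cofactors that bind mRNA together with IGF2BP proteins, 3 were higher and 4 lower, beside 57.3% higher over all genes. Their median of -0.11 became 0.07 after rescaling. MATR3 was at 6.04 and 10.9 FPKM, a log2 change of 0.75. It stands on 2 overlapping rows, and the other row went the other way, from 4.19 FPKM with shNC to 3.15 FPKM with shKIAA1429, a log2 change of -0.32. The sum of both rows was at 10.2 FPKM in the shNC and 14.0 FPKM in the shKIAA1429 library, a log2 change of 0.42. PABPC1, the cytoplasmic poly(A)-binding protein, was at 268 and 164 FPKM, a log2 change of -0.70, and it has near-identical gene copies. The helicase DHX9 was at 32.4 and 50.2 FPKM, a log2 change of 0.62. Of 10 known target mRNAs of IGF2BP proteins 7 were listed, 4 of them higher, with a median of 0.21, beside 57.3% higher over all genes. MYC was at 28.5 FPKM with shNC and 4.53 FPKM with shKIAA1429, a log2 change of -2.42. It was the only one past 1.5, beside 0.644% of all genes. HMGA2 was at 14.4 and 25.3 FPKM, a log2 change of 0.77, and CD44 at 26.9 and 35.4 FPKM, a log2 change of 0.39. The targets differed in direction. IGF2BP2, the most abundant IGF2BP, was at 104% of control. Whether the level of IGF2BP2 bears on that of MYC or of the other targets was not tested.

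Last, the change of each member was recomputed under 6 other settings, except for IGF2BP1, which had 5 because its level was too low for the trend fit. YTHDF3 ranged from -0.74 without a pseudocount to -0.52 after rescaling, and YTHDF2 from 0.16 to 0.43. The sign was the same under all settings for 7 members, YTHDF1, YTHDF2, YTHDF3, YTHDC2, IGF2BP1, ALKBH5 and FTO. The settings that only change the pseudocount cannot change a sign. It changed for YTHDC1 after centring and with the trend removed, for IGF2BP2 after centring and for IGF2BP3 after rescaling.

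**Figure D5:**
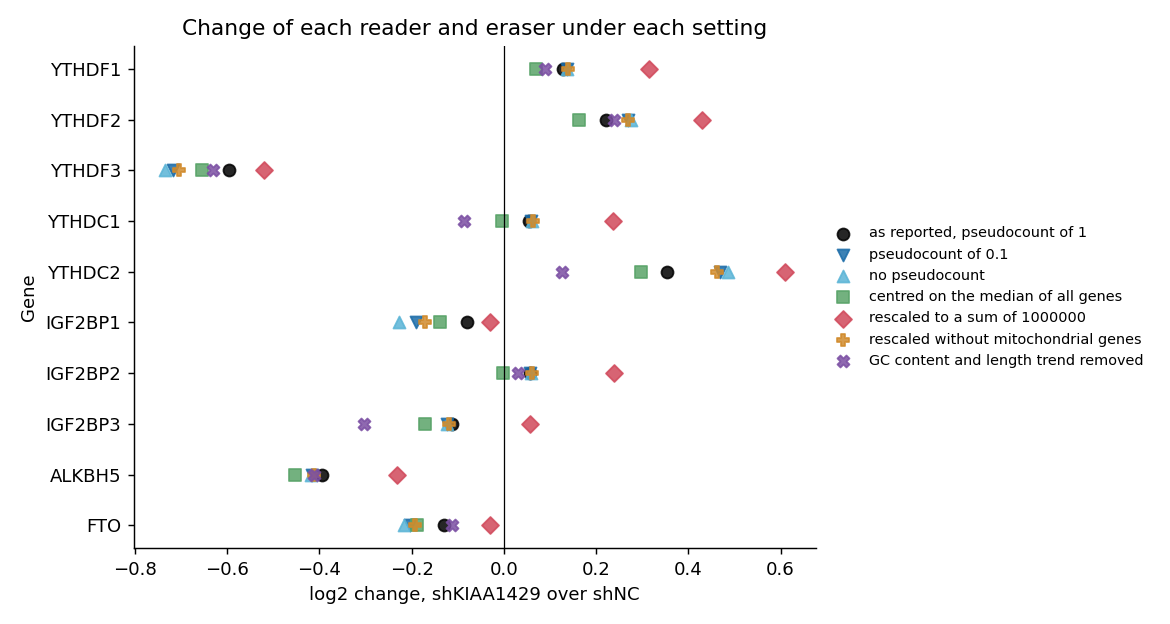
Log2 change of each reader and eraser with shKIAA1429 over shNC as reported (black circles) and under 6 other settings (coloured markers). YTHDF3 stays between -0.74 and -0.52, and the markers of YTHDC1, IGF2BP2 and IGF2BP3 lie on both sides of 0.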

How the data were processed

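RNA-seq of 1 shKIAA1429 and 1 shNC library of ACHN cells was analysed, grouped by the sample labels. The authors deposited FPKM values per gene, 1 library per file, for the same 12014 protein-coding genes, all of which exceeded 0.5 FPKM in one library or both. The submitters' processing notes name cutadapt 1.9, HISAT2 2.0.4, StringTie 1.3.4d, DESeq2 and edgeR, and the gene positions are those of GRCh37. FPKM sums were 283046 (shNC) and 249409 (shKIAA1429), of which 13 mitochondrial genes made up 42.2% and 34.6%. FPKM keeps no counts, so no count test and no counting interval was possible.

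Members were found by gene name. From the deposited FPKM, log2 changes with a pseudocount of 1 were computed, and counts and medians used the 10708 genes whose FPKM averaged 1 or more. For list genes on more than 1 row the highest row was used. The genome build of the alignment is not given in the sources used here. The genes named are all members, KIAA1429 and, per list, the 3 largest changes, with exceptions stated. METTL3, METTL14, the cell markers and the reference genes GAPDH and ACTB are given besides. The members, lists and settings were chosen with earlier results of these data known. Alternatives were a pseudocount of 0.1, centring, rescaling to a sum of 1000000 with and without mitochondrial genes, limits of 1 and 0.5, no filter, and a filter at an average of 5 FPKM. Subtraction of a trend over GC content and transcript length (medians of 10 by 10 bins, 10648 genes) and no pseudocount were added after seeing the data. Sequences came from GENCODE 29 (GRCh38), from the coding transcript with the longest coding sequence. The calculation of log2 changes and the main limit were tried on simulated data, with changes built in well past that limit. Such a trial had to succeed, so it does not bear on the smaller changes of the members or on the other steps. Python 3.11.15, NumPy 2.4.6, pandas 2.3.3 and matplotlib 3.10.9 were used.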

Additional observations from a re-analysis of the deposited data

How the results depend on the processing

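Of the readers and erasers counted, 0 were past 1.5 with a pseudocount of 0.1, centring, both rescalings or subtraction of the trend over GC content and length (9 genes each), without a filter (10 genes) and with a filter at an average of 5 FPKM (5 genes). A limit of 1 also gave 0, and a limit of 0.5 gave 1, YTHDF3. The median log2 change of the members, 0.05, became -0.0032 after centring, 0.24 after rescaling to a sum of 1000000, -0.012 without a filter, where IGF2BP1 was included, and -0.086 after subtraction of that trend, a setting added after seeing the data. The first 3 moves follow from the construction of the setting, and the cause of the last was not tested. The median of all genes was 0.24 after rescaling. The signs of YTHDC1, IGF2BP2 and IGF2BP3 therefore depended on the setting. YTHDF3, ALKBH5 and YTHDC2 kept theirs, but so did YTHDF1, YTHDF2, FTO and IGF2BP1, with FTO and IGF2BP1 at -0.03 after rescaling. Another pseudocount cannot change a sign, and centring moves all genes by the same amount, so a kept sign is no measure of firmness. With 1 library per group, a difference between single cultures and an effect of the shRNA cannot be told apart, and depth is unknown. No paired analysis was possible because each group holds only 1 library.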
